A study of Mus musculus with 6 samples.

Results

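Cholesterol and fatty acid synthesis were followed through 31 genes in Ocy454 cells, a mouse cell line with osteocytic properties, after 4 h of treatment. The genes were found by symbol among the 39179 genes of the deposited table, 30 under the current symbol and Msmo1 under its older symbol Sc4mol, without use of their measured values. They comprise 7 genes of the mevalonate pathway, 11 of the steps from squalene to cholesterol, 7 of fatty acid synthesis and 6 that regulate these pathways or carry sterol. The cells, a subclone grown from a single cell, reached confluence at 33 °C and were kept at 37 °C for 14 days, with fresh medium 24 h before collection. They then received vehicle, given in the labels as PBS with HCl, or the hormone fragment PTH 1-34 at 1 nM. The other treated cells received 0.5 uM of YKL-05-093, a compound that inhibits salt inducible kinases (SIKs). Each of the 3 groups had 2 libraries of the same cells. The labels name a single vehicle, whereas the study's methods state DMSO as the solvent of the compounds for use in culture, so if DMSO went only to the YKL-05-093 cells, its effect and that of YKL-05-093 cannot be told apart. The methods call the 2 libraries of a group experimental duplicates without saying whether they were separate cultures, so p-values measure only the spread between these samples, which may be technical.

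Cholesterol is built from acetyl-CoA through mevalonate, farnesyl diphosphate, squalene and lanosterol, and acetyl-CoA also feeds fatty acid synthesis through malonyl-CoA. Most genes of both routes are targets of the SREBP transcription factors, encoded by Srebf1 and Srebf2. SCAP escorts the SREBP precursors out of the endoplasmic reticulum for cleavage, and the INSIG proteins hold SCAP back when sterol is plentiful. PTH raises cyclic AMP in osteocytes, which restrains SIK2 through protein kinase A. The study saw no such phosphorylation of SIK3 with PTH, whereas YKL-05-093 targets SIK3 as well as SIK2. YKL-05-093 was used to ask which responses to PTH follow when SIKs are blocked directly. The study reports that the compound also inhibits other kinases in vitro, and that some genes still responded to it in SIK-deficient cells. Levels after the compound, and their differences from PTH, may therefore reflect other kinases too. The part of SIKs in them was not tested.

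In outline, PTH and YKL-05-093 differed from each other in 10 of the 31 genes, where 10% of all genes tested did. Against vehicle none of the 31 passed the threshold, where 2.19% of all genes did for PTH and 0.666% for YKL-05-093. Insig2 and 7 enzyme genes, 6 of them on the route to cholesterol, were lower after PTH than after YKL-05-093. The fatty acid desaturase gene Scd1 and the elongase gene Elovl6 were higher. None of these differences reached 2-fold. The 10 calls depend on the narrow spread between the PTH and between the YKL-05-093 libraries. They also depend on the filter for low values and on how the spread was modelled. With no filter 0 of the 31 passed, where 1.24% of all genes did.

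Levels are given as RPKM, the reads of a gene per kilobase of its length, normalised to library size. Library totals were 17505798 and 27983585 reads for vehicle replicates 1 and 2, the lowest and highest of all. They were 21607344 and 19073347 reads with PTH, and 20285143 and 20742857 reads with YKL-05-093. Mitochondrial genes held 11.7% and 15% of the reads with vehicle, 13.7% and 16.5% with PTH, and 13.2% and 15.9% with YKL-05-093. All 31 genes passed the filter for low values, 0.5 RPKM or more in 2 or more libraries, with between 45 reads (Idi1) and 17737 reads (Scd2) in a library. Of 7 osteocyte markers, Sost, Fgf23 and Mepe were under 1 RPKM in all 6 libraries and Dmp1 ran from 0.376 to 1.16 RPKM. The others were higher, with Phex at 0.764 to 4.93 RPKM, Pth1r at 33.4 to 70.7 RPKM and Pdpn at 53.1 to 170.5 RPKM. All 6 osteoblast markers stood at 1 RPKM or more. Of 7 adipocyte markers, Adipoq, Plin1, Cidec and Lpl were under 1 RPKM in all libraries. Pparg ran from 0.562 to 1.83 RPKM, Fabp4 from 1.08 to 2.27 RPKM and Cebpa from 6.59 to 8.71 RPKM. The summed level of the list, mostly Cebpa, ran from 11.5 to 12.6 RPKM with vehicle. It ran from 8.74 to 10.1 RPKM with PTH and 9.78 to 10.9 RPKM with YKL-05-093. The vehicle libraries stood apart from each other more than the others did. Over 14264 genes the median absolute log2 difference between the libraries of a group was 0.333 for the vehicle pair, 0.108 for the PTH pair and 0.103 for the YKL-05-093 pair, and over the 31 genes it was 0.281, 0.106 and 0.0662.

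Proximal promoter sequence shows what the genes that differed most have next to their starts. RefSeq promoter windows (GRCm38.p6, 250 bases before to 50 after a start) were found for 25 of the 31 genes. Of the 4 genes with the largest differences between PTH and YKL-05-093, Insig2, Elovl6 and Acss2 have a window and are shown, with Insig1 as the paralogue of Insig2, and Hmgcs1, added after the search because it holds the searched sterol element. Each is the 250 bases before the start, and capitals mark CCAAT, the box bound by NF-Y, or TCACNCCAC, the core of a sterol regulatory element, on either strand.
Insig2, chr1:121332590-121332839, minus strand: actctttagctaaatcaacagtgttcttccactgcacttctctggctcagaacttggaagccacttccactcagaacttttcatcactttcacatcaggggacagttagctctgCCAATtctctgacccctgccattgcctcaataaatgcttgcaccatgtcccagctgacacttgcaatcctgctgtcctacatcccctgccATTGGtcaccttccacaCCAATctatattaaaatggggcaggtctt
Elovl6, chr3:129532136-129532385, plus strand: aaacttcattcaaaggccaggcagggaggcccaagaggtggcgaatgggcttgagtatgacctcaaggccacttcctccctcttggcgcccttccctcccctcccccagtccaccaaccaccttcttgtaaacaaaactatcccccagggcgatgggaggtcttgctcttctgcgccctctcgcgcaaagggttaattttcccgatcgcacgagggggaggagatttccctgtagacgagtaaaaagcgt
Acss2, chr2:155517793-155518042, plus strand: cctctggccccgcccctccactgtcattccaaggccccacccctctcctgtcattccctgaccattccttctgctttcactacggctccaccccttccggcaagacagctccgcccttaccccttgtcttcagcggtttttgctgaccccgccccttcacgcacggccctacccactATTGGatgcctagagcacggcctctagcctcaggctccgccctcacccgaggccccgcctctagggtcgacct
Insig1, chr5:28071162-28071411, plus strand: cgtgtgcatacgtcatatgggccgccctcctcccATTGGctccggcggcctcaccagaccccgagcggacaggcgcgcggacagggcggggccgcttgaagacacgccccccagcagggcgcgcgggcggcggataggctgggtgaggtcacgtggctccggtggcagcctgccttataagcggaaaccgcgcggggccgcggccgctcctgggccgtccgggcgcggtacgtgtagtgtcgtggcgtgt
Hmgcs1, chr13:119690101-119690350, plus strand: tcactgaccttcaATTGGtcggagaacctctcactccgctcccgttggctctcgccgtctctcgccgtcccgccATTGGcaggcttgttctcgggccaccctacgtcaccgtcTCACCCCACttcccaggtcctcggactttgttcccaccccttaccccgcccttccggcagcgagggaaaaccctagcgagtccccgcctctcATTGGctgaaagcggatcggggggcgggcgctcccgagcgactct
CCAAT was found in 22 of the 33 windows of these genes (66.7%) and in 37.4% of all 32851 windows. GGGCGG, the Sp1 box, was in 75.8% of their windows and 35.7% of all, TCACNCCAC in 1 window (3.03%) against 1.24%, and the cyclic AMP response element TGACGTCA in none against 1.79%. All were searched on both strands of the 300 bases, and none of these motifs contains another. The printed Insig2 window is the 1 of its 3 windows at the annotated gene start and holds 3 CCAAT boxes, whereas the other two hold none. The Elovl6 window holds none of the 4 motifs, Acss2 holds 1 CCAAT and 5 GGGCGG, and Insig1 1 and 3. A match here is a run of letters and not a site shown to be bound, and a missing match says only that these letters are not in this window.

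**Figure D1:**
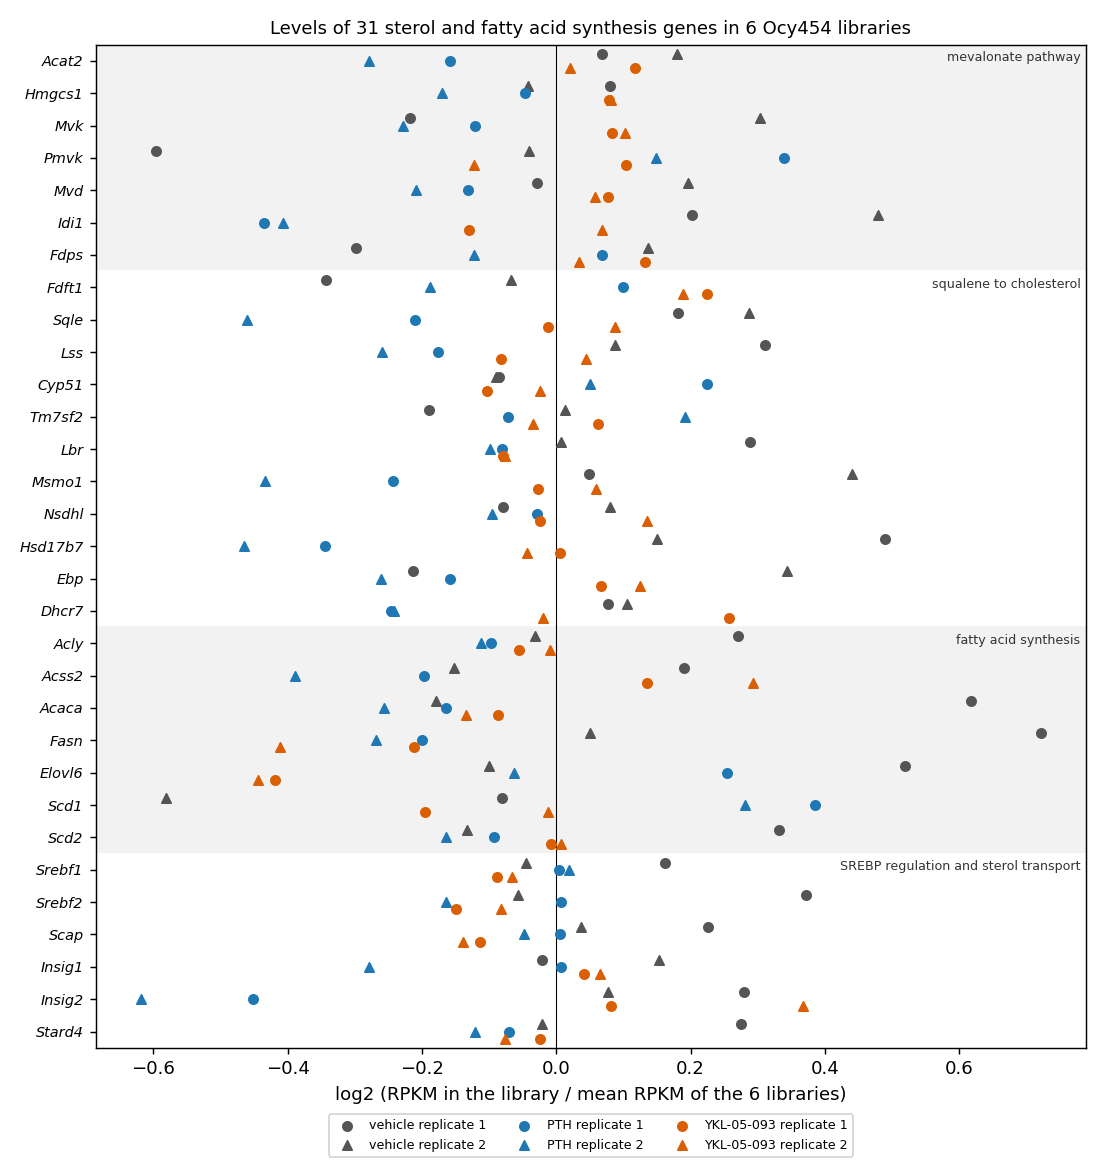
Level of each of the 31 genes in the 6 libraries, as the log2 of its RPKM over the mean RPKM of the 6 libraries (horizontal axis), with genes in rows by role, colours for the 3 groups, and circles and triangles for replicates 1 and 2. For Insig2, Hsd17b7, Sqle, Msmo1 and Acat2 both PTH libraries lie to the left of the other 4, for Scd1 to the right, and the vehicle libraries are the farthest apart for Acaca, Fasn and Elovl6.

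PTH against vehicle asks what the hormone did to these genes. None of the 31 passed an adjusted p of 0.05 in limma, where 2.19% of 14261 tested genes passed (1.26% higher, 0.94% lower, and 1.91% by more than 2-fold). The smallest adjusted p was 0.1, for Insig2. At an unadjusted p under 0.05 there were 9 (29% of 31, against 13.3% of all genes tested). Insig2, Hsd17b7, Idi1, Fasn, Msmo1, Sqle and Lss had lower levels, 7 of 31 or 22.6% where 6.86% of all genes did, and Scd1 and Pmvk higher levels, 6.45% against 6.41%. The median log2 fold change was -0.23 over the 31 genes and -0.03 over all genes tested, and 25 of the 31 (80.6%) were below 0, against 54.3% of all. Without vehicle replicate 1 these medians were -0.13 and -0.01, and without vehicle replicate 2 they were -0.31 and -0.06. Both PTH libraries were below both vehicle libraries in 16 genes (51.6%, background 24%) and above them in 3, Cyp51, Pmvk and Scd1 (background 19.1%). The 95% interval of a log2 fold change extended to either side by 0.43 in the median gene, and the smallest absolute change that passed among all genes was 0.81. The counts depended on the vehicle libraries: without vehicle replicate 1, 7 of the 31 passed (9.35% of all genes), and without vehicle replicate 2, 12 passed (31.6% of all genes).

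YKL-05-093 against vehicle asks what the inhibitor did. Again 0 of 31 passed in limma, where 0.666% of 14255 genes did (0.393% higher and 0.274% lower, all by more than 2-fold). The smallest adjusted p was 0.444, for Fasn. At an unadjusted p under 0.05 there were 3 (9.68%, against 8.66% of all). Fasn and Elovl6 had lower levels (6.45%, against 4.76%) and Fdft1 a higher level (3.23%, against 3.9%). The median log2 fold change was -0.06, against -0.04 for all genes, and 18 of the 31 were below 0 (58.1%, against 56.8%). The YKL-05-093 libraries lay below both vehicle libraries in 11 genes (35.5%, background 22.1%) and above them in 1, Fdft1 (background 15.7%). The 95% interval extended by 0.42 in the median gene, and no gene with an absolute log2 change under 1.02 passed. Without vehicle replicate 2, 9 of the 31 passed, where 19.1% of all genes did. With voom on the recovered reads, 0 passed in either comparison with vehicle, where 2.28% of all genes did for PTH and 0.673% for YKL-05-093. Both comparisons use the same 2 vehicle libraries, so their fold changes share the error of those libraries.

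PTH against YKL-05-093 asks directly where the hormone and the inhibitor differ, without the vehicle libraries. Here 10 of 31 passed (32.3%), where 10% of 14255 genes did. Of these, 8 were lower with PTH (25.8%, against 5.14% of all genes tested) and 2 were higher (6.45%, against 4.88%). At an unadjusted p under 0.05 there were 18 (58.1%, against 22.3%), 14 lower (45.2%, against 10.9%) and 4 higher (12.9%, against 11.4%). None of the 31 differed by more than 2-fold with an adjusted p under 0.05, where 1.21% of all genes did. The median log2 fold change was -0.13 over the 31 and 0.01 over all genes, and 22 of the 31 were below 0 (71%, against 46.8%). Both PTH libraries were below both YKL-05-093 libraries in 20 genes (64.5%, background 23.7%) and above them in 6 (19.4%, background 26.3%). The 95% interval extended by 0.17 in the median gene, less than against vehicle. The 10 calls depend on that narrow spread: in 1 fit of all 6 libraries, where the vehicle spread enters, 0 passed (1.02% of all genes), and without any 1 of the 4 libraries 0 or 1 did, Insig2 without YKL-05-093 replicate 1 (0% to 2.86% of all genes). With no filter on low values 0 passed (1.24% of all genes), and with the variance trend on the mean value only Insig2 did (3.5% of all genes). By any exact permutation test of 2 libraries against 2, the smallest two-sided p is 0.333.

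**Figure D2:**
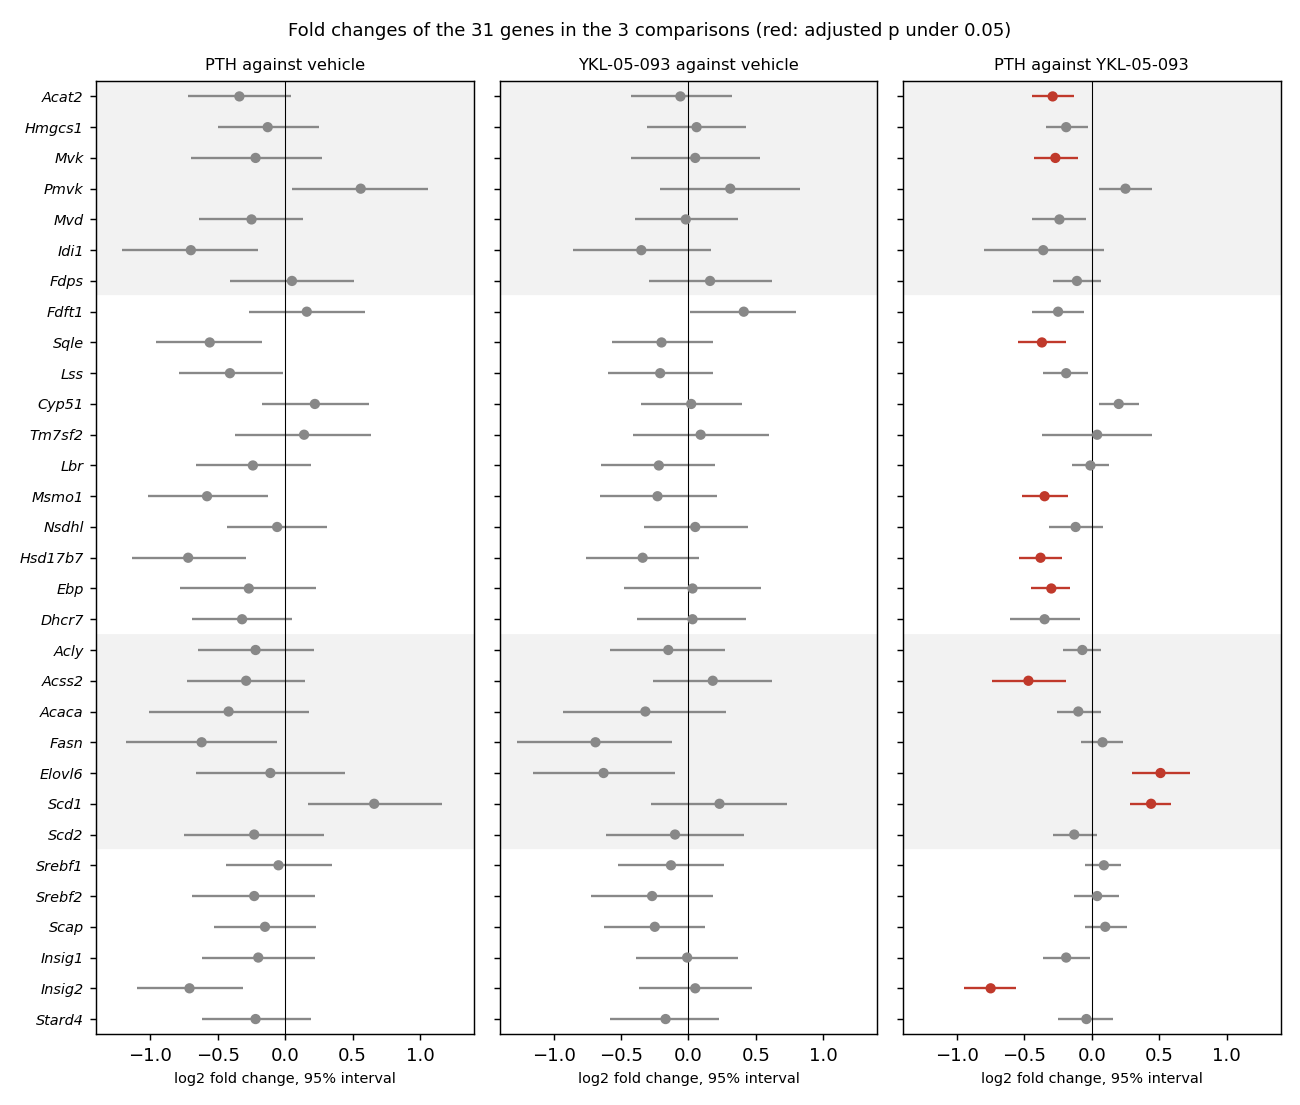
Log2 fold change of each of the 31 genes (points) with its 95% interval (bars) in the 3 comparisons, on the log2(RPKM + 0.1) scale, with genes in rows and shading by role. Red marks an adjusted p under 0.05, which 10 genes reached in PTH against YKL-05-093 and none reached against vehicle, where the intervals are wider.

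In the mevalonate pathway, which makes the isoprenoid units, 2 of 7 genes were lower with PTH than with YKL-05-093 (5.14% of all genes tested) and none was higher (4.88% of all). From vehicle, the median log2 fold change of the 7 was -0.22 to PTH and 0.05 to YKL-05-093, and it was -0.24 between the treatments, beside -0.03, -0.04 and 0.01 for all genes tested. Acat2, the thiolase that joins acetyl-CoA units, stood at 20.5 and 22.2 RPKM with vehicle, 17.6 and 16.2 RPKM with PTH, and 21.2 and 19.9 RPKM with YKL-05-093. Both PTH values lie below the other 4. The log2 difference between PTH and YKL-05-093 was -0.29 (SE 0.07, adjusted p 0.0203), and 39.1% of the 50-base stretches of Acat2 exons also occur in other genes, Acat3 and Tcp1 above all, so its reads are not all certain. Mvk, mevalonate kinase, was at 12.1 and 17.3 RPKM with vehicle, 12.9 and 11.98 RPKM with PTH, and 14.9 and 15.1 RPKM with YKL-05-093. Its PTH and YKL-05-093 values do not overlap (-0.27, SE 0.08, adjusted p 0.0406), whereas the vehicle values reach from within the PTH range to above both YKL-05-093 values. Pmvk, phosphomevalonate kinase, went the other way, at 12.1 and 17.8 RPKM with vehicle, 23.1 and 20.2 RPKM with PTH, and 19.6 and 16.8 RPKM with YKL-05-093. Its log2 differences were 0.56 for PTH against vehicle (SE 0.22, adjusted p 0.319), 0.31 for YKL-05-093 against vehicle (SE 0.22, adjusted p 0.815) and 0.25 between the treatments (SE 0.09, adjusted p 0.116). Idi1, the isomerase of isopentenyl diphosphate, was the least read of all, with 1.46 and 1.77 RPKM with vehicle, 0.941 and 0.959 RPKM with PTH, and 1.16 and 1.33 RPKM with YKL-05-093. The 3 groups are in separate ranges, but the log2 differences of -0.70 for PTH (SE 0.22, adjusted p 0.205) and -0.35 for YKL-05-093 (SE 0.22, adjusted p 0.784) did not pass. Hmgcs1, which makes HMG-CoA, Mvd, the decarboxylase, and Fdps, which makes farnesyl diphosphate, ranged from 15.8 to 18.9, 9.70 to 12.8 and 25.3 to 34.2 RPKM over the 6 libraries and passed in no comparison. Of the exonic 50-base stretches, 26.2% were shared with other genes for Fdps, 25.3% for Idi1 and 11.6% for Hmgcs1.

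From squalene to cholesterol, 4 of 11 genes were lower with PTH than with YKL-05-093 (5.14% of all genes tested), namely Sqle, Msmo1, Hsd17b7 and Ebp, and the medians of the 11 in the 3 comparisons were -0.27, 0.02 and -0.25. Hsd17b7, a ketosterol reductase of the demethylation steps, was at 15.6 and 12.3 RPKM with vehicle, 8.72 and 8.02 RPKM with PTH, and 11.1 and 10.7 RPKM with YKL-05-093. The 3 groups did not overlap, with vehicle highest and PTH lowest. Its PTH level was 0.768 times the YKL-05-093 level (log2 -0.38, SE 0.07, adjusted p 0.00269) and 0.608 times the vehicle level (log2 -0.72, SE 0.18, adjusted p 0.12), and YKL-05-093 differed from vehicle by -0.34 (SE 0.18, adjusted p 0.713). Sqle, squalene epoxidase, which makes the substrate of the ring closure, was at 11.1 and 11.9 RPKM with vehicle, 8.44 and 7.10 RPKM with PTH, and 9.68 and 10.4 RPKM with YKL-05-093. These groups did not overlap either, in the same order. Sqle differed by -0.37 between the treatments (SE 0.08, adjusted p 0.00837), by -0.56 between PTH and vehicle (SE 0.17, adjusted p 0.201) and by -0.20 between YKL-05-093 and vehicle (adjusted p 0.832). Msmo1, a methylsterol oxidase, had 8.28 and 10.9 RPKM with vehicle, 6.76 and 5.92 RPKM with PTH, and 7.85 and 8.34 RPKM with YKL-05-093. Its PTH values are the lowest 2 of 6, and the treatments differed by -0.35 (SE 0.08, adjusted p 0.00861).

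Ebp, a sterol isomerase, showed how the vehicle pair limits the comparison. It stood at 37.0 and 54.5 RPKM with vehicle, 38.5 and 35.8 RPKM with PTH, and 45.0 and 46.8 RPKM with YKL-05-093. The PTH and YKL-05-093 values are apart (-0.30, SE 0.07, adjusted p 0.0076), and the vehicle values reach from the level of the PTH libraries to beyond the YKL-05-093 libraries. Cyp51, the lanosterol demethylase, was at 33.6 and 33.5 RPKM with vehicle, 41.6 and 36.9 RPKM with PTH, and 33.1 and 35.0 RPKM with YKL-05-093, with the PTH libraries highest. Its log2 difference from vehicle was 0.22 (SE 0.17, adjusted p 0.67) and from YKL-05-093 0.20 (SE 0.07, adjusted p 0.101). Fdft1, squalene synthase, was at 10.7 and 13.0 RPKM with vehicle, 14.6 and 11.95 RPKM with PTH, and 15.9 and 15.5 RPKM with YKL-05-093. YKL-05-093 lay above vehicle by 0.41 (SE 0.17, adjusted p 0.552), and 26.5% of the exonic 50-base stretches of Fdft1 are shared, mostly with Ctsb, which overlaps it on the opposite strand. Lss, which closes the sterol ring, Lbr and Tm7sf2, reductases of the same sterol double bond, Nsdhl, a sterol dehydrogenase, and Dhcr7, which acts at the end of the route, passed in no comparison. Of these, Lss (3.64 to 5.41 RPKM), Dhcr7 (2.54 to 3.59 RPKM) and Lbr (60.8 to 79.5 RPKM) had both PTH libraries below both others of each group. Their log2 differences from YKL-05-093 were -0.19, -0.35 and -0.01, so the libraries of Lbr were apart by very little. Summed over the 18 cholesterol synthesis genes, levels were 313.8 and 341.8 RPKM with vehicle, 309.7 and 284.5 RPKM with PTH, and 322.3 and 320.9 RPKM with YKL-05-093, the PTH libraries being the lowest 2.

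**Figure D3:**
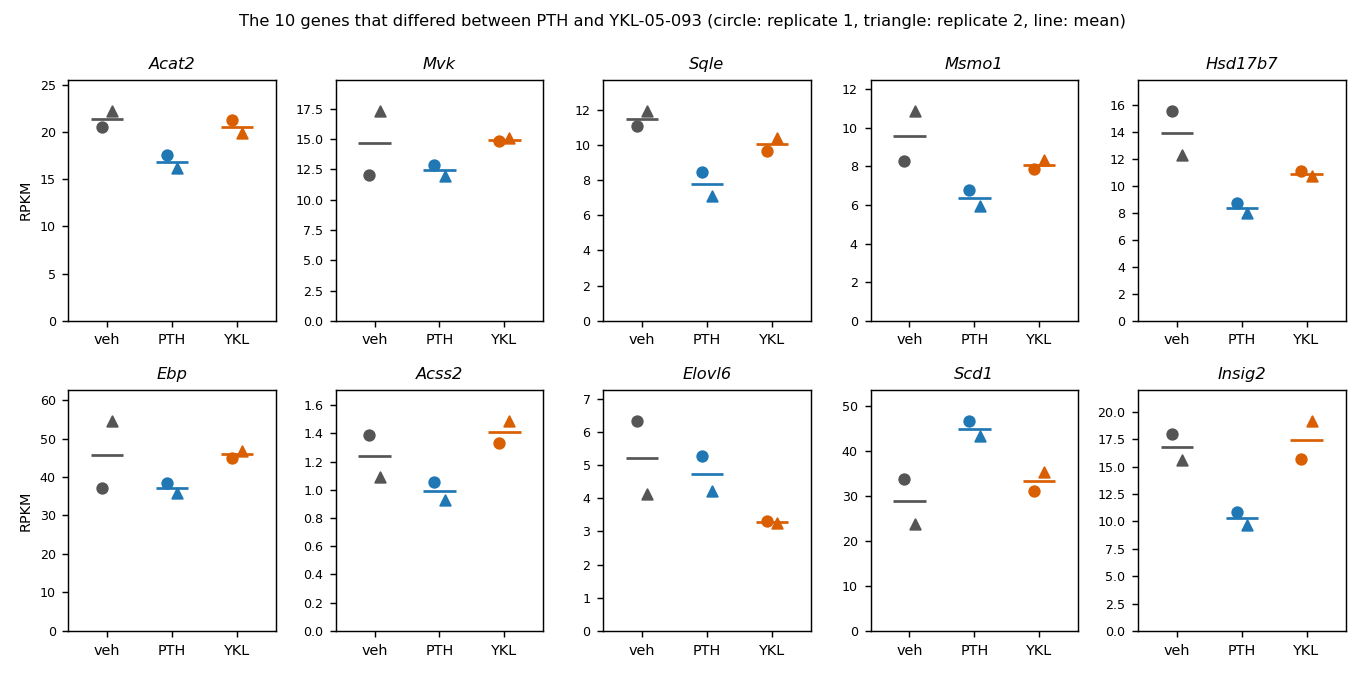
RPKM in each library (circles replicate 1, triangles replicate 2) and group means (lines) for the 10 genes with an adjusted p under 0.05 between PTH and YKL-05-093, with vertical axes from 0. PTH and YKL-05-093 values do not overlap in any of the 10, and vehicle values lie on both sides of a treated group in Mvk, Ebp and Elovl6.

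Among the 7 fatty acid synthesis genes, Scd1 and Elovl6 were higher (4.88% of all genes tested) and Acss2 was lower (5.14% of all) with PTH than with YKL-05-093, and the other 4 did not pass. The medians of the 7 in the 3 comparisons were -0.23, -0.15 and -0.07. Scd1, a stearoyl-CoA desaturase that makes oleate, had 33.8 and 23.9 RPKM with vehicle, 46.7 and 43.4 RPKM with PTH, and 31.2 and 35.4 RPKM with YKL-05-093. Both PTH libraries exceeded all others, at 45.0 ± 2.31 RPKM (SD, n = 2) against 33.3 ± 2.99 RPKM with YKL-05-093. This was 1.35-fold (log2 0.44, SE 0.07, adjusted p 0.000792), and against vehicle 1.58-fold (log2 0.66, SE 0.21, adjusted p 0.225). YKL-05-093 and vehicle overlapped (log2 0.23, SE 0.21, adjusted p 0.857). Of the exonic 50-base stretches of Scd1, 4.56% are shared with other genes, led by Scd3 and Scd2. Its paralogue Scd2, the most abundant of the 31, was at 160.5 and 116.4 RPKM with vehicle, 119.7 and 113.8 RPKM with PTH, and 126.9 and 128.2 RPKM with YKL-05-093. It did not pass, with the treatments -0.13 apart (95% interval -0.29 to 0.04).

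Elovl6, which elongates palmitate to stearate, was at 6.32 and 4.12 RPKM with vehicle, 5.26 and 4.22 RPKM with PTH, and 3.30 and 3.24 RPKM with YKL-05-093. The YKL-05-093 libraries were the lowest 2, and PTH overlapped vehicle. The log2 differences were 0.51 between PTH and YKL-05-093 (SE 0.10, adjusted p 0.00332), -0.63 between YKL-05-093 and vehicle (SE 0.22, adjusted p 0.452) and -0.11 between PTH and vehicle (adjusted p 0.893). Acss2, the acetyl-CoA synthetase that uses acetate, stood at 1.39 and 1.09 RPKM with vehicle, 1.06 and 0.928 RPKM with PTH, and 1.33 and 1.49 RPKM with YKL-05-093. PTH was lowest, with 0.724 times the YKL-05-093 level (log2 -0.47, SE 0.13, adjusted p 0.028), on 140 to 244 reads a library. Genes on the opposite strand overlap Acss2, and 6.13% of its exonic 50-base stretches are shared. Fasn, fatty acid synthase, had 23.7 and 14.9 RPKM with vehicle, 12.5 and 11.9 RPKM with PTH, and 12.4 and 10.8 RPKM with YKL-05-093. All 4 treated libraries lay below both vehicle libraries, by -0.62 with PTH (SE 0.24, adjusted p 0.321) and -0.69 with YKL-05-093 (SE 0.24, adjusted p 0.444), and the treatments were 0.08 apart (95% interval -0.08 to 0.23). The vehicle libraries themselves lay 0.67 apart for Fasn. Acly, which splits citrate into acetyl-CoA, and Acaca, which makes malonyl-CoA, ranged from 30.2 to 39.3 and 2.41 to 4.42 RPKM and passed in no comparison, and 30.4% of the exonic 50-base stretches of Acaca are shared with other genes. Summed over the 7 fatty acid synthesis genes, levels were 269.5 and 194.8 RPKM with vehicle, 218.2 and 206.9 RPKM with PTH, and 209.2 and 214.1 RPKM with YKL-05-093. Both treated groups lay between the vehicle libraries, and each sum is mostly Scd2. Of the 3 adipocyte markers that could be tested, Pparg was lower with PTH (0.562 and 0.770 RPKM) than with YKL-05-093 (1.27 and 1.42 RPKM, adjusted p 0.028 in limma). The other two did not pass, with Cebpa at 7.24 and 6.85 RPKM with PTH and 6.59 and 7.49 RPKM with YKL-05-093, and Fabp4 at 2.27 and 1.08 RPKM and 1.87 and 1.90 RPKM, so both overlapped. The part of adipocyte genes in these differences was not tested. In such bulk samples, fewer cells of a type and less RNA per cell cannot be told apart.

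Among the regulators, Insig2 was lower with PTH than with YKL-05-093, and Insig1, Srebf1, Srebf2 and Scap did not pass in any comparison. The medians of these and Stard4, 6 genes in all, were -0.21, -0.15 and -0.004. Insig2, which retains SCAP in the endoplasmic reticulum, lies at chr1:121304353-121332589 on the minus strand (GRCm38). It was at 18.0 and 15.7 RPKM with vehicle, 10.9 and 9.68 RPKM with PTH, and 15.7 and 19.2 RPKM with YKL-05-093. Vehicle and YKL-05-093 overlapped and both PTH libraries were below all 4, at 10.3 ± 0.837 RPKM (SD, n = 2) against 17.4 ± 2.44 RPKM with YKL-05-093. PTH was 0.593 times YKL-05-093 (log2 -0.75, SE 0.09, adjusted p 3.32e-05), the largest difference of the 31, and its exons share no 50-base stretch with another gene. Against vehicle the values were 0.613 times for PTH (log2 -0.71, SE 0.17, adjusted p 0.1) and 1.03 times for YKL-05-093 (log2 0.05, SE 0.18, adjusted p 0.971). The PTH difference from vehicle passed in 1 fit of all 6 libraries (adjusted p 0.0434 in limma), with a replicate block (0.0481) and with the length trend removed (0.013). It did not pass in the fit of the report, nor with other pseudocounts, filters, variance trend or scaling, nor with voom. With each library left out in turn, its log2 difference ran from -0.81 to -0.61. In all alternatives it kept its direction.

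Insig1, the paralogue that is itself an SREBP target, was at 37.0 and 41.8 RPKM with vehicle, 37.8 and 30.99 RPKM with PTH, and 38.7 and 39.3 RPKM with YKL-05-093. PTH overlapped vehicle (log2 -0.20, SE 0.18, adjusted p 0.726), YKL-05-093 was -0.01 from vehicle (SE 0.16, adjusted p 0.993), and the treatments differed by -0.19 (SE 0.08, adjusted p 0.187). Srebf1, which favours fatty acid genes, ranged from 21.1 to 25.1 RPKM, with log2 differences of -0.05 for PTH (95% interval -0.44 to 0.35, adjusted p 0.945), -0.13 for YKL-05-093 (-0.52 to 0.26, adjusted p 0.889) and 0.09 between them (-0.05 to 0.22, adjusted p 0.478). Srebf2, which favours sterol genes, ranged from 10.6 to 15.4 RPKM, with differences of -0.23 (-0.69 to 0.22, adjusted p 0.702), -0.27 (-0.72 to 0.18, adjusted p 0.809) and 0.04 (-0.13 to 0.20, adjusted p 0.851) in the same order. Scap ranged from 8.27 to 10.7 RPKM, with differences of -0.15 (-0.53 to 0.23, adjusted p 0.772), -0.25 (-0.63 to 0.12, adjusted p 0.782) and 0.10 (-0.05 to 0.26, adjusted p 0.462). The SREBP proteins are also controlled by cleavage, which RNA levels do not show. Stard4, a carrier of cholesterol between membranes, ranged from 2.74 to 3.60 RPKM and passed in no comparison.

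Other genes of the same pathways were counted from lists written by function and not by how the genes moved. Beside each count stand the same shares of all genes tested, 2.19% for PTH and 0.666% for YKL-05-093 against vehicle, and 10% between the treatments (4.88% higher, 5.14% lower). Of 9 other cholesterol synthesis genes, 0 passed against vehicle for either treatment and 2 passed between the treatments, Por higher and 1 lower, with medians of -0.07, -0.06 and -0.03 in the 3 comparisons. Por, the reductase that supplies electrons to CYP51 and other P450 enzymes, had 11.7 and 12.3 RPKM with vehicle, 15.8 and 16.0 RPKM with PTH, and 10.9 and 12.2 RPKM with YKL-05-093 (PTH against YKL-05-093 log2 0.46, SE 0.08, adjusted p 0.000624). Of 19 tested of 24 other fatty acid and glyceride genes, Acsl3 passed for both treatments against vehicle (1 of 19, or 5.26%), and 7 passed between them (36.8%), 4 higher (Dgat1, Fads2, Hsd17b12 and Hacd3) and 3 lower (Acsl3, Gpam and Lpin1), with medians of 0.10, 0.05 and 0.12. Acsl3, a ligase that activates long-chain fatty acids, was at 23.6 and 19.1 RPKM with vehicle, 62.1 and 57.9 RPKM with PTH, and 78.2 and 83 RPKM with YKL-05-093. It rose 2.82-fold with PTH (log2 1.49, SE 0.18, adjusted p 0.00908) and 3.78-fold with YKL-05-093 (log2 1.92, SE 0.18, adjusted p 0.0104), and was lower with PTH than with YKL-05-093 (log2 -0.42, SE 0.07, adjusted p 0.000579). Over the alternatives its adjusted p ran from 4.33e-07 to 0.352 for PTH, passing in 12 of 15, and from 5.45e-09 to 0.221 for YKL-05-093, passing in 11 of 15, and both calls were lost with no filter on low values and without either library of that treatment. Between the treatments it ran from 2.45e-06 to 0.378, passing in 9 of 15. Dgat1, which makes triglyceride, and Hacd3, a dehydratase of chain elongation listed as Ptplad1, were higher with PTH than with YKL-05-093 (log2 0.46, SE 0.11, adjusted p 0.0106, and 0.42, SE 0.07, adjusted p 0.000839).

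Of 11 tested of 12 genes of SREBP processing and sterol sensing, 0 passed against vehicle and 1, Mylip, was lower with PTH than with YKL-05-093 (9.09%, against 10% of all genes tested), with medians of -0.09, -0.06 and 0.01. Of 15 tested of 17 genes of sterol uptake, efflux and storage, Lrp8 passed for PTH against vehicle (6.67%, against 2.19% of all genes tested) and 5 passed between the treatments (33.3%, against 10%), 3 higher and 2 lower, Scarb1 among the lower, with medians of -0.01, 0.02 and -0.01. Lrp8, a lipoprotein receptor, was at 0.773 and 0.590 RPKM with vehicle, 2.11 and 1.85 RPKM with PTH, and 0.795 and 0.826 RPKM with YKL-05-093. It rose 2.68-fold with PTH (log2 1.42, SE 0.19, adjusted p 0.0131), differed by 0.23 with YKL-05-093 (adjusted p 0.85), and the treatments differed by 1.19 (SE 0.12, adjusted p 5.19e-06). Over the alternatives the adjusted p of Lrp8 for PTH against vehicle ran from 7.15e-08 to 0.343, passing in 11 of 15 and not without either PTH library, and between the treatments it ran from 2.44e-17 to 0.148, passing in 13 of 15. Ch25h, which makes the oxysterol that holds back SREBP cleavage, had 7 and 16 reads with vehicle, 55 and 27 reads with PTH, and 2 and 4 reads with YKL-05-093. Its level was higher with PTH than with YKL-05-093 (log2 2.88 on the log2(RPKM + 0.1) scale, SE 0.46, adjusted p 0.000487), on few reads, and against vehicle the differences were 1.73 for PTH (adjusted p 0.081) and -1.15 for YKL-05-093 (adjusted p 0.666). Stard5, a sterol carrier, was higher with PTH than with YKL-05-093 by 0.52 (SE 0.10, adjusted p 0.00291).

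The difference between the vehicle libraries went with gene length, and the 31 genes span that range. Over 14264 genes the Spearman correlation between length and the log2 ratio of vehicle replicate 1 to replicate 2 was 0.53, and over the 31 genes 0.75, given as descriptions across genes of the same 2 libraries. In the PTH pair it was 0.02 and in the YKL-05-093 pair -0.18 over the 14264 genes. The median log2 ratio was -0.30 for the 4792 genes under 2000 bases and 0.50 for the 2677 genes over 6000 bases. The fatty acid genes Acaca, Fasn, Elovl6, Scd1 and Scd2 (15526, 10251, 5946, 4830 and 5447 bases) read higher in vehicle replicate 1, by 0.80, 0.67, 0.62, 0.50 and 0.46, and the short genes Pmvk, Ebp, Mvk and Fdps (1231 to 2727 bases) read lower, by -0.56, -0.56, -0.52 and -0.44. The rule was not strict, since Msmo1 (7108 bases) and Sqle (6583 bases) also read lower, by -0.39 and -0.11. When the trend with length was taken out of each library, a choice made once the data had been seen, 4 of 31 passed for PTH against vehicle (6.13% of all genes), with Insig2 (-0.67, adjusted p 0.013), Hsd17b7 (-0.62, adjusted p 0.0121) and Fasn (-0.42, adjusted p 0.0481) lower and Scd1 (0.74, adjusted p 0.0125) higher. Over all alternatives the adjusted p of this comparison ran from 0.0107 to 1 for Insig2, 0.00779 to 1 for Hsd17b7, 0.00633 to 1 for Fasn and 0.00461 to 1 for Scd1. With the length trend removed, the median log2 fold change for PTH against vehicle was -0.15 over the 31 genes and 0.000 over all genes. For YKL-05-093 against vehicle 0 passed (3.2% of all genes). Between the treatments 12 did (12.4% of all genes), the same 10 with Cyp51 and Hmgcs1 in addition.

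**Figure D4:**
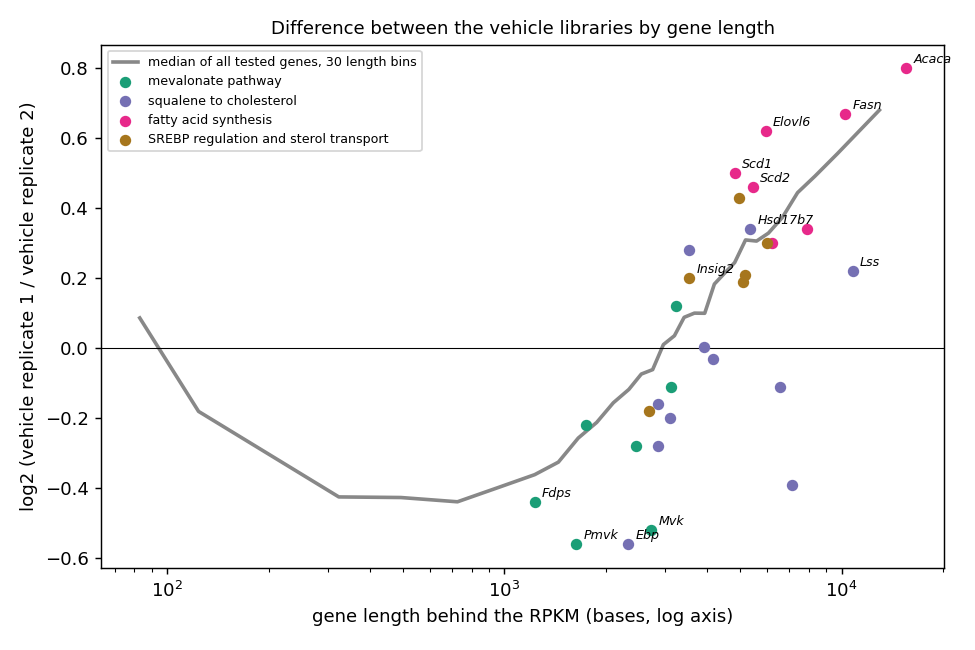
Log2 ratio of vehicle replicate 1 to vehicle replicate 2 (vertical axis) against the gene length behind the RPKM in bases (horizontal log axis) for the 31 genes, coloured by role, with the median of all tested genes in 30 length bins as a line. Acaca, Fasn and Elovl6 lie above 0 and short genes such as Pmvk and Fdps lie below 0, as the line does at those lengths, whereas Msmo1 and Sqle lie below 0 at lengths where the line is above it.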

How the data were processed

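RNA from 6 libraries of Ocy454 cells was depleted of ribosomal RNA, made into directional libraries and sequenced as read pairs. Per the study's methods and the submitters' processing notes (CASAVA 1.7, STAR, mm10), reads were mapped with STAR and counted with HTSeq v.0.6.0 on Ensembl release 75. The authors deposited RPKM values, 1 library per column, without a log or a stated scaling between libraries. The gene length rule and the strand setting of the counting are not given in the sources used here, so overlapping and antisense genes are uncertain. The authors tested counts with edgeR at more than 2-fold. Since RPKM values were deposited, limma was used here, with voom on recovered reads as the count-based alternative.

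Reads behind each RPKM were recovered from the steps between values: all 26214 genes above 0 came out as whole reads in each library within 1e-06 of a read, the lengths and totals having been chosen to give this, and they add to 99.7% of the totals. They served for the variance trend, for depth and for an alternative with voom. For a gene of 2000 bases, 3 reads are 0.0536 to 0.0857 RPKM, a counting limit only.

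Genes that reached 0.5 RPKM in 2 or more of the 6 libraries were tested with limma (version 3.58.1, R version 4.3.3) on the log2 of RPKM plus 0.1, using the 4 libraries of each comparison, a prior variance trend on mean log2 reads, and Benjamini-Hochberg adjustment over all genes tested. Fold changes are differences on that scale, which understates those of low genes. A gene passed at an adjusted p under 0.05. The code was tested on simulated data. Positions, overlaps and shared 50-base exon stretches come from GENCODE M21 on GRCm38, and promoter windows from RefSeq (GRCm38.p6).

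Named are all 31 genes, with statistics for those that passed (the 8 largest per comparison, to which Acat2 and Mvk were added), the 5 regulators, and the 3 largest rises and falls per comparison, and of other pathway genes the 8 largest that passed, 1 of which is not reported here. The genes, lists and tests were chosen with earlier results of these data known. Osteocyte, osteoblast, adipocyte, chondrocyte, macrophage and muscle markers were read as checks. Alternatives were other pseudocounts, filters, spreads, scalings, a replicate block, each library left out, and removal of the length trend.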

Additional observations from a re-analysis of the deposited data

How the results depend on the processing

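The 2 libraries per group limit all comparisons, and the vehicle pair limits those with vehicle most. Against vehicle, 0 of the 31 genes passed for both treatments with the pseudocounts 0.01 and 1 and the filters at 0.1, 1 and none. The same held with the trend on the mean value, voom and median-ratio scaling. The trend on the mean value passed 1.14% of all genes for PTH and 0.0421% for YKL-05-093. With no filter 0% of all genes passed in either comparison, so that setting says nothing about the 31 in particular. In the rest, 1.53% to 2.37% of all genes passed for PTH and 0.32% to 0.771% for YKL-05-093. For PTH against vehicle, 1 fit of 6 libraries and the replicate block each gave 2 (Hsd17b7 and Insig2), where 3.98% and 5.32% of all genes passed. Removal of the length trend gave 4, where 6.13% of all genes passed. With each library left out in turn, the median log2 fold change of the 31 genes ran from -0.31 to -0.13. For YKL-05-093 against vehicle, 0 of the 31 passed in the same settings, where 1.98%, 2.11% and 3.2% of all genes did. Its number was not 0 without vehicle replicate 2, as given above. Between PTH and YKL-05-093, 10 of the 31 passed with the filter at 1 (12% of all genes), voom (11.2%) and median-ratio scaling (10.6%). With the pseudocounts 0.01 and 1 there were 9 each (9.17% and 8.43% of all genes), and with the filter at 0.1 there were 7 (6.18%). The trend on the mean value left 1 (3.5% of all genes), no filter 0 (1.24%) and 1 fit of 6 libraries 0 (1.02%). At more than 2-fold 0 passed, where 1.21% of all genes did. Fits of this comparison with a library left out are given above. A fit that leaves out a library takes the lone sample of that group to vary like the other pair. The no-filter fits test more genes at low reads. The cause of the changes in number between settings was not tested.

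The labels do not say whether libraries with the same replicate number were grown or handled together. Their deviations correlated at -0.03, -0.05 and -0.05 over 14264 genes. Such low correlations cannot settle that question, since the vehicle deviations went with gene length and the others hardly did. With the replicate block, 2, 0 and 12 genes passed for PTH against vehicle, YKL-05-093 against vehicle and PTH against YKL-05-093 (5.32%, 2.11% and 12.3% of all genes), the last being the same 10 with Dhcr7 and Fdft1.

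Some log2 fold changes that had not passed changed sign. With the length trend removed, Srebf1 became 0.04 for PTH against vehicle and Insig1 0.004 for YKL-05-093 against vehicle, and with median-ratio scaling Mvd and Insig1 became 0.03 and 0.03 for YKL-05-093 against vehicle. With each library left out in turn, PTH against vehicle ran from -0.15 to 0.06 for Srebf1, -0.46 to 0.004 for Scd2, -0.55 to 0.004 for Ebp, -0.14 to 0.02 for Nsdhl, -0.42 to 0.19 for Elovl6, -0.47 to 0.04 for Mvk and -0.16 to 0.27 for Fdps. Of these, Ebp, Mvk and Scd2 passed in a setting without a vehicle library. YKL-05-093 against vehicle ran from -0.02 to 0.06 for Cyp51, -0.10 to 0.19 for Insig2, -0.13 to 0.09 for Mvd, -0.71 to 0.07 for Acaca, -0.11 to 0.000 for Acat2, -0.33 to 0.13 for Scd2, -0.25 to 0.31 for Ebp, -0.02 to 0.13 for Nsdhl, -0.02 to 0.47 for Scd1, -0.21 to 0.31 for Mvk, -0.10 to 0.07 for Insig1, -0.11 to 0.16 for Dhcr7, -0.05 to 0.38 for Fdps and -0.001 to 0.12 for Hmgcs1. Of these, Acaca passed without vehicle replicate 2. PTH against YKL-05-093 ran from -0.05 to 0.12 for Srebf2, -0.08 to 0.16 for Tm7sf2 and -0.02 to 0.17 for Fasn. No gene that had passed changed direction in any of these settings.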

Other observations

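Of 4 chondrocyte markers, Sox9 stood at 1.16 to 2.65 RPKM, Col2a1 at 0.577 to 1.71 RPKM, and Acan and Col10a1 under 1 RPKM in all 6 libraries. Of 4 markers of macrophages and other blood cells, Cd68 stood at 3.69 to 4.42 RPKM and Ptprc, Adgre1 and Csf1r under 1 RPKM. All 4 muscle markers were under 1 RPKM. Of the osteocyte markers, Pdpn, a membrane glycoprotein, rose with PTH against vehicle from 53.1 and 71.3 RPKM to 170.5 and 162.9 RPKM (adjusted p 0.0148 in limma). Pth1r, the PTH receptor, was at 52.1 and 63.4 RPKM with vehicle, 38.5 and 33.4 RPKM with PTH, and 61.4 and 70.7 RPKM with YKL-05-093. It was lower with PTH than with YKL-05-093 (log2 -0.88, SE 0.08, adjusted p 2.02e-06) and did not pass against vehicle (adjusted p 0.148). Phex ranged from 0.764 to 4.93 RPKM and passed in no comparison.

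The 6 osteoblast markers went in different directions. With PTH against vehicle, Sp7, an osteoblast transcription factor, fell from 46.0 and 45.5 RPKM to 12.2 and 11.1 RPKM (adjusted p 0.0019), and Bglap, which encodes osteocalcin, rose from 6.61 and 11.5 RPKM to 27.1 and 25.3 RPKM (adjusted p 0.0286). Runx2, another such factor, was at 19.5 and 13.0 RPKM with vehicle and 7.87 and 7.02 RPKM with PTH (adjusted p 0.0626), and was lower with PTH than with YKL-05-093 (adjusted p 8.68e-06). The summed level of the list, 710.0 to 814.9 RPKM with vehicle, 821.6 to 999.5 RPKM with PTH and 858.5 to 1125 RPKM with YKL-05-093, is mostly Col1a1 (258.8 to 430.1 RPKM) and Ibsp (292.2 to 586.6 RPKM), which passed in no comparison.

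Of the markers tested, the numbers that passed with PTH against vehicle were 1 of 4 for osteocytes (Pdpn higher), 2 of 6 for osteoblasts (Bglap higher and Sp7 lower), 0 of 3 for adipocytes, 1 of 2 for chondrocytes (Col2a1 higher) and 0 of 1 for blood cells, where 2.19% of all genes passed. With YKL-05-093 against vehicle 0 passed in each list in limma, where 0.666% of all genes did. Between the treatments, where 10% of all genes passed, the numbers were 2 of 4 (Pdpn higher and Pth1r lower with PTH), 3 of 6 (Bglap higher, Runx2 and Sp7 lower), 1 of 3 (Pparg lower), 2 of 2 (Col2a1 higher and Sox9 lower) and 0 of 1 in the same order. Whether these shifts bear on the synthesis genes was not tested.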
